A study of Mus musculus with 10 samples.

Results

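Collagen chain genes encode the chains of the collagens, the main structural proteins of the extracellular matrix. They were taken as every gene of the deposited table whose symbol consists of Col, a number, the letter a and a number. The rule found 44 of 33347 genes, chosen by name and not by any measured value. The data are counts of bulk RNA from 10 lung samples of wild-type mice. Both groups had been given bleomycin, an agent that breaks DNA and is used to produce lung fibrosis. Of these lungs, 5 came from recipients of bone marrow cells with high aldehyde dehydrogenase activity (ALDHbr) and 5 from recipients of cells with low activity (ALDHdim). The sources used here do not give strain, age, dose, the origin of the marrow or time of sampling, and no lung without bleomycin or without cells was analysed here. The labels number the samples without saying that each was a separate animal, and the p-values below rest on the spread between these samples, which may be technical.

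A collagen molecule is a rope of chains wound in a triple helix, and the helix is built on a short repeat in which glycine recurs. Fibrillar collagens (types I, II, III, V, XI, XXIV and XXVII) pack into banded fibres, and types I and III make up most of the scar in fibrotic lung. Type IV collagen forms the sheet-like network of basement membranes under alveolar epithelium and around capillaries, where the alpha 1 and alpha 2 chains are widespread and the alpha 3, alpha 4 and alpha 5 chains form the network of the alveolar wall. Type VI collagen forms beaded microfibrils between cells and fibres. The remaining chains are grouped here as other. They comprise the fibril-associated collagens, the transmembrane collagens, the multiplexins XV and XVIII that carry the precursor of endostatin-like fragments, the network collagens VIII and X, the anchoring fibril collagen VII, and types XXVI and XXVIII.

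The classes differ in gene structure before any expression is considered. In GENCODE M21 on GRCm38, 305 of 649 coding exons of the 11 fibrillar genes (47.0%) were exactly 54 bases long, taking the transcript with the longest coding sequence of each gene. The share was 4.05% in the 6 basement membrane genes, 7.80% in the 6 microfibrillar genes and 16.0% in the 21 other genes. Exons whose length is a multiple of 9 bases, the length that codes for a glycine repeat, made up 82.4%, 45.9%, 51.4% and 54.2% in the same order. Col1a1 has 21 exons of 54 bases among 51, and Col4a1 has 2 among 52. The median span of the fibrillar genes was 45.02 kb, against 137 kb for the basement membrane genes. Single fibrillar genes spanned from 16.8 kb (Col1a1) to 260 kb (Col24a1), so the classes overlapped in span.

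The type IV genes lie in head-to-head pairs, and the stretch between the partners is printed here because the pairs are compared below. Col4a1 (minus strand) and Col4a2 (plus strand) overlap by 22 bases at their first exons. Col4a4 and Col4a3 are separated by 71 bases, and Col4a6 and Col4a5 by 1308 bases, of which the 100 nearest to Col4a6 are shown. Col3a1, the most abundant chain, is shown by the 250 bases before its start. Sequences are from RefSeq promoter windows on GRCm38.p6, written 5′ to 3′ on the strand named, and capitals mark a TATA box (TATAAA) or a GC box (GGGCGG or its reverse complement CCGCCC).
Col4a1 and Col4a2, chr8:11312805-11312826, minus strand: ttggagacgCCGCCCgcgcact
Col4a4 and Col4a3, chr1:82586850-82586920, minus strand: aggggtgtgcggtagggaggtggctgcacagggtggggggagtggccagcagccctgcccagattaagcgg
Col4a6, chrX:141474077-141474176, minus strand: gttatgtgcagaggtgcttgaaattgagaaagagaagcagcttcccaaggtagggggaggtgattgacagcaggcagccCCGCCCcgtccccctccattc
Col3a1, chr1:45311288-45311537, plus strand: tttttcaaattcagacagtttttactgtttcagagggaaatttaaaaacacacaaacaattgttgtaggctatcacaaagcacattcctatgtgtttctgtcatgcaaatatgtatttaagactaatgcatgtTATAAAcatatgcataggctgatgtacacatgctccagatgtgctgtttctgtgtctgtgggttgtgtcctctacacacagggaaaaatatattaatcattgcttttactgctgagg
The GC content was 69.0% between Col4a4 and Col4a3 and 35.2% before Col3a1. Windows of 250 bases before to 50 bases after the start were found for 35 of the 44 genes. On either strand, the GC box stood in at least 1 window of 22 of these genes, and in 35.7% of all 32851 mouse windows. The TATA box stood in 5 genes, against 13.6% of all windows, and the CCAAT box (CCAAT) in 13, against 37.4%. These matches are descriptions of letters and not evidence of binding. The TATAAA marked in Col3a1 begins 117 bases before the annotated start, and no role in starting transcription is shown.

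The libraries held 588063 to 2002947 counts, and a filter on low counts (edgeR's filterByExpr, minimum count 10) left 10844 genes. Of the 44 collagen chain genes, 23 passed it and 21 did not. Levels are given as CPM, the gene's share of a library's tested counts scaled to 1e+06 after TMM normalisation. The libraries were made by a 3′ method, in which counts do not scale with transcript length, so CPM of different chains can be set side by side without dividing by length, although priming may differ between genes. The lung epithelium markers had a summed level of 36245 to 97922 CPM over 8 of 8 genes. ALDHbr 3 and ALDHbr 5 stood apart, with 22807 and 21577 genes detected at an equal depth of 588063 counts, against 16228 to 18056 in the other 8. The edgeR comparison of the groups is therefore also given without both of these libraries. Class shares, correlations and ratios were not computed without both.

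Collagen chains took 0.131% (95% Wilson interval 0.122 to 0.141%) of all counts in ALDHbr 2, the lowest library, and 0.533% (0.522 to 0.545%) in ALDHbr 1, the highest. Intervals cover counting error only. Over all libraries 48793 counts fell on the 44 genes. Fibrillar genes held 54.02% of them, basement membrane genes 29.2%, microfibrillar genes 9.49% and the others 7.25%. The chains Col3a1, Col1a2 and Col1a1 alone held 49.5%, and with Col4a1 and Col4a2 the share was 69.8%.

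The make-up of the collagen counts varied from lung to lung within both groups. The fibrillar share was 46.2, 43.9, 47.9, 57.6 and 61.2% in ALDHbr 1 to 5 and 55.0, 34.7, 54.7, 59.8 and 61.1% in ALDHdim 1 to 5. ALDHdim 2 was the only one of the 10 libraries in which basement membrane chains (41.5%, 95% Wilson interval 40.1 to 43.0%) outweighed fibrillar chains (34.7%, 33.3 to 36.2%). Group means of the fibrillar share were 51.4 ± 7.58% and 53.1 ± 10.6% (SD, n = 5 each). Those of the basement membrane share were 29.3 ± 5.14% and 29.998 ± 6.56%. Both differences between ALDHbr and ALDHdim means were smaller than the SD within either group. The microfibrillar share, at 7.46 to 12.6%, spanned the least, 1.68-fold, of the class shares.

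**Figure D1:**
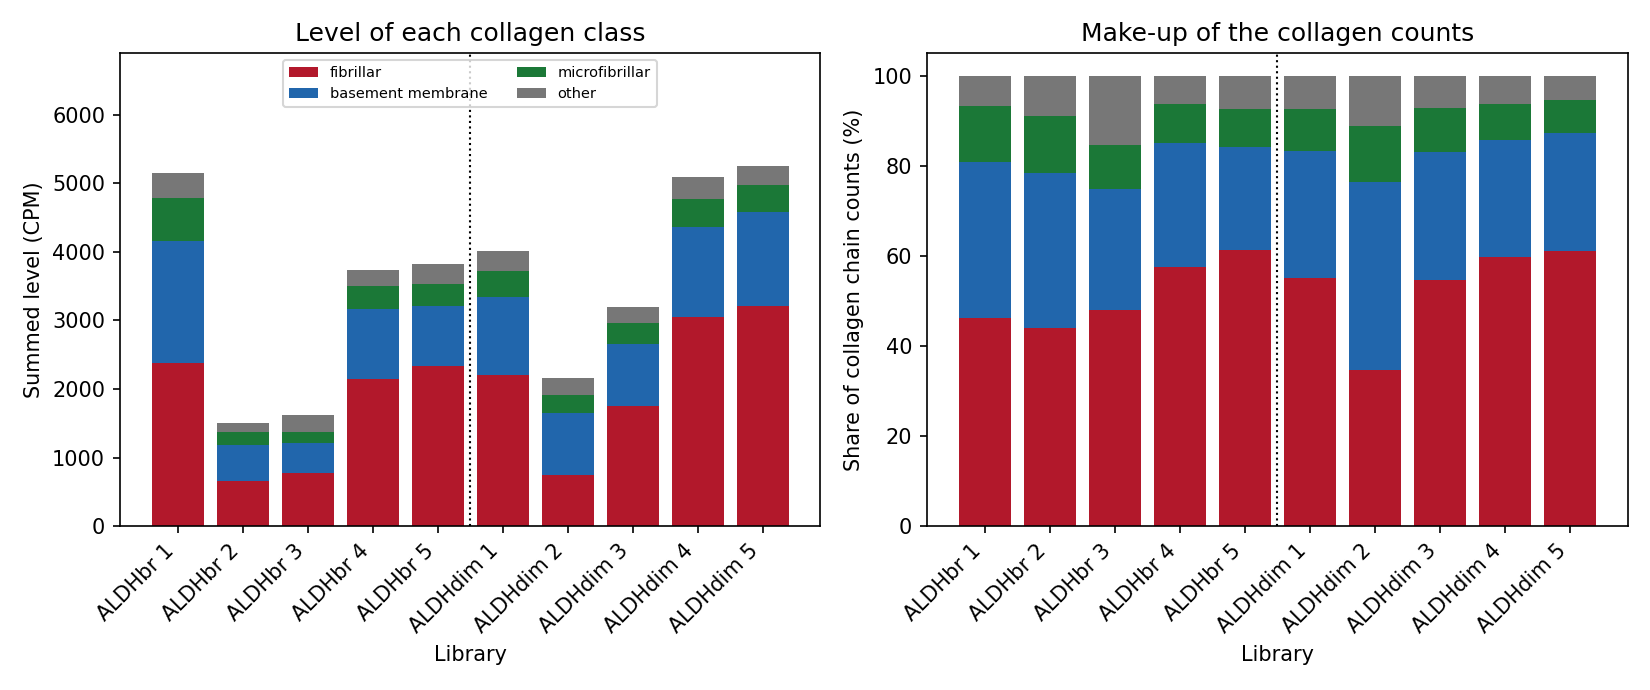
Summed CPM (left) and share of collagen chain counts in percent (right) of the fibrillar, basement membrane, microfibrillar and other classes in each of the 10 libraries, with the ALDHbr libraries left of the dotted line. The summed level ranges from 1510 CPM in ALDHbr 2 to 5259 CPM in ALDHdim 5, and the fibrillar share is lowest in ALDHdim 2 at 34.7%.

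Fibrillar chains were the most abundant and, by the median spread within groups, the most variable. Positions are on GRCm38. Col1a1, the alpha 1 chain of type I collagen (chr11:94936224-94953042), stood at 564, 147, 103, 569.6 and 487 CPM in ALDHbr 1 to 5 and at 533, 168, 409, 815 and 888 CPM in ALDHdim 1 to 5. ALDHbr 2, ALDHbr 3 and ALDHdim 2 were low, the other 7 libraries ranged from 409 to 888 CPM, and the groups overlapped. The group difference was 374 ± 230.2 against 563 ± 296 CPM (SD, n = 5 each; log2 fold change −0.57, SE 0.58), with a 95% interval of 0.273 to 1.66 as a fold. Its partner Col1a2, the alpha 2 chain of type I (chr6:4504814-4541544), was at 813, 268, 254, 688 and 733 CPM in ALDHbr 1 to 5 and 729, 303, 524, 1047 and 1043 CPM in ALDHdim 1 to 5, with the same 3 libraries lowest (log2 fold change −0.39, SE 0.42). For Col3a1, the single chain of type III (chr1:45311538-45349706), the levels were 819.5, 194, 309, 729 and 889 CPM and 783, 206, 682, 951 and 1014 CPM in the same order (log2 fold change −0.30, SE 0.50). Its low libraries were again ALDHbr 2, ALDHbr 3 and ALDHdim 2. Type V collagen sits inside type I fibres and limits their width. Its chain Col5a2 (chr1:45374321-45503282), next to Col3a1 on chromosome 1, was at 115, 29.3, 56.9, 117 and 153 CPM in ALDHbr 1 to 5 and 98.0, 45.4, 79.95, 152 and 209 CPM in ALDHdim 1 to 5 (log2 fold change −0.25, SE 0.48). It was lowest in ALDHbr 2 and highest in ALDHdim 5. Col5a1 averaged 25.1 ± 14.3 against 30.7 ± 11.7 CPM (log2 fold change −0.15, SE 0.37). Col27a1, a fibrillar chain known from cartilage, averaged 10.7 ± 5.65 against 14.7 ± 3.61 CPM (log2 fold change −0.31, SE 0.31).

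The widespread type IV chains were highest in ALDHbr 1, unlike Col1a1. Col4a1 (chr8:11198423-11312826) stood at 724, 168, 158, 422 and 399 CPM in ALDHbr 1 to 5 and at 482, 315, 343, 619.7 and 596 CPM in ALDHdim 1 to 5. It was highest in ALDHbr 1 and lowest in ALDHbr 3, ALDHbr 2 and ALDHdim 2, the libraries lowest in Col1a1, with ALDHdim 2 closer to the rest. The group means were 374 ± 232 against 471 ± 140.1 CPM (log2 fold change −0.31, SE 0.40). Its partner Col4a2 (chr8:11312805-11449287) was at 524, 113, 93.1, 301 and 218 CPM and 322, 252.2, 238, 369.6 and 398 CPM (log2 fold change −0.31, SE 0.42), again highest in ALDHbr 1 and lowest in ALDHbr 3 and ALDHbr 2. All 5 ALDHdim values of both chains fell inside the range of the ALDHbr values. Col4a3, a chain of the alveolar network (chr1:82586921-82722059), was at 296, 149, 76.3, 152 and 118 CPM in ALDHbr 1 to 5 and 170.4, 188, 184, 149 and 213 CPM in ALDHdim 1 to 5 (log2 fold change −0.17, SE 0.28). ALDHbr 3 and ALDHbr 5 were lowest, and ALDHbr 2 lay just under the lowest ALDHdim value. Col4a4 averaged 81.5 ± 36.4 against 88.6 ± 10.6 CPM (log2 fold change −0.070, SE 0.23), Col4a5 56.0 ± 21.6 against 59.1 ± 11.8 CPM (log2 fold change −0.0031, SE 0.23) and Col4a6 8.14 ± 3.73 against 8.45 ± 2.004 CPM (log2 fold change −0.055, SE 0.32). The ALDHbr SD exceeded the ALDHdim SD for each of the 6 type IV genes.

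Of the microfibrillar genes, Col6a1, Col6a2 and Col6a3, the chains of the standard type VI molecule, passed the filter. Col6a1 (chr10:76708792-76726168) stood at 324, 111, 72.4, 163 and 139.9 CPM in ALDHbr 1 to 5 and 169.7, 156, 156, 215 and 179 CPM in ALDHdim 1 to 5. ALDHbr 1 lay above all other libraries and ALDHbr 3 below them, and the ALDHdim libraries lay between (log2 fold change −0.075, SE 0.31). Col6a2 averaged 103 ± 61.3 against 111 ± 25.6 CPM (log2 fold change −0.051, SE 0.35) and Col6a3 52.3 ± 36.5 against 63.5 ± 19.4 CPM (log2 fold change −0.17, SE 0.40). The alternative chains Col6a4, Col6a5 and Col6a6 were at most 9.06 CPM in any library.

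Among the other chains, 8 passed the filter. Col18a1, the multiplexin whose end is released as endostatin (chr10:77052178-77166548), had the smallest p of the 23 chains. It stood at 37.4, 13.7, 23.3, 39.3 and 37.5 CPM in ALDHbr 1 to 5 and 51.8, 22.7, 35.7, 62.3 and 53.8 CPM in ALDHdim 1 to 5, so that the groups overlapped (log2 fold change −0.48, SE 0.28; unadjusted p = 0.11, adjusted p = 0.99925, edgeR's quasi-likelihood test). Col14a1, a fibril-associated collagen (chr15:55307750-55520803), was at 47.5, 21.5, 23.3, 32.3 and 27.5 CPM and 48.3, 24.2, 45.9, 42.9 and 42.9 CPM (log2 fold change −0.34, SE 0.23). Within the ALDHdim group it was lowest in ALDHdim 2. Col12a1, also fibril-associated, averaged 31.7 ± 15.8 against 27.0 ± 5.26 CPM (log2 fold change 0.30, SE 0.27) and was 1 of 2 chains with a higher estimate in ALDHbr recipients. The other was Col23a1, a transmembrane collagen (chr11:51289920-51583918), at 58.9, 46.9, 46.6, 46.4 and 36.7 CPM in ALDHbr 1 to 5 and 52.5, 55.5, 39.98, 47.2 and 37.4 CPM in ALDHdim 1 to 5 (log2 fold change 0.023, SE 0.17). It was the steadiest chain, spanning 1.61-fold over 10 libraries, where Col1a1 spanned 8.58-fold. Col13a1, a transmembrane collagen of alveolar fibroblasts, reached 88.7 CPM in ALDHbr 1 (log2 fold change −0.14, SE 0.37). Col15a1, the multiplexin of vascular basement membranes, Col16a1, which is fibril-associated, and the network chain Col8a1 had log2 fold changes of −0.18 (SE 0.32), −0.40 (SE 0.41) and −0.11 (SE 0.42). Each of these 3 rested on 1 count in ALDHbr 2.

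**Figure D2:**
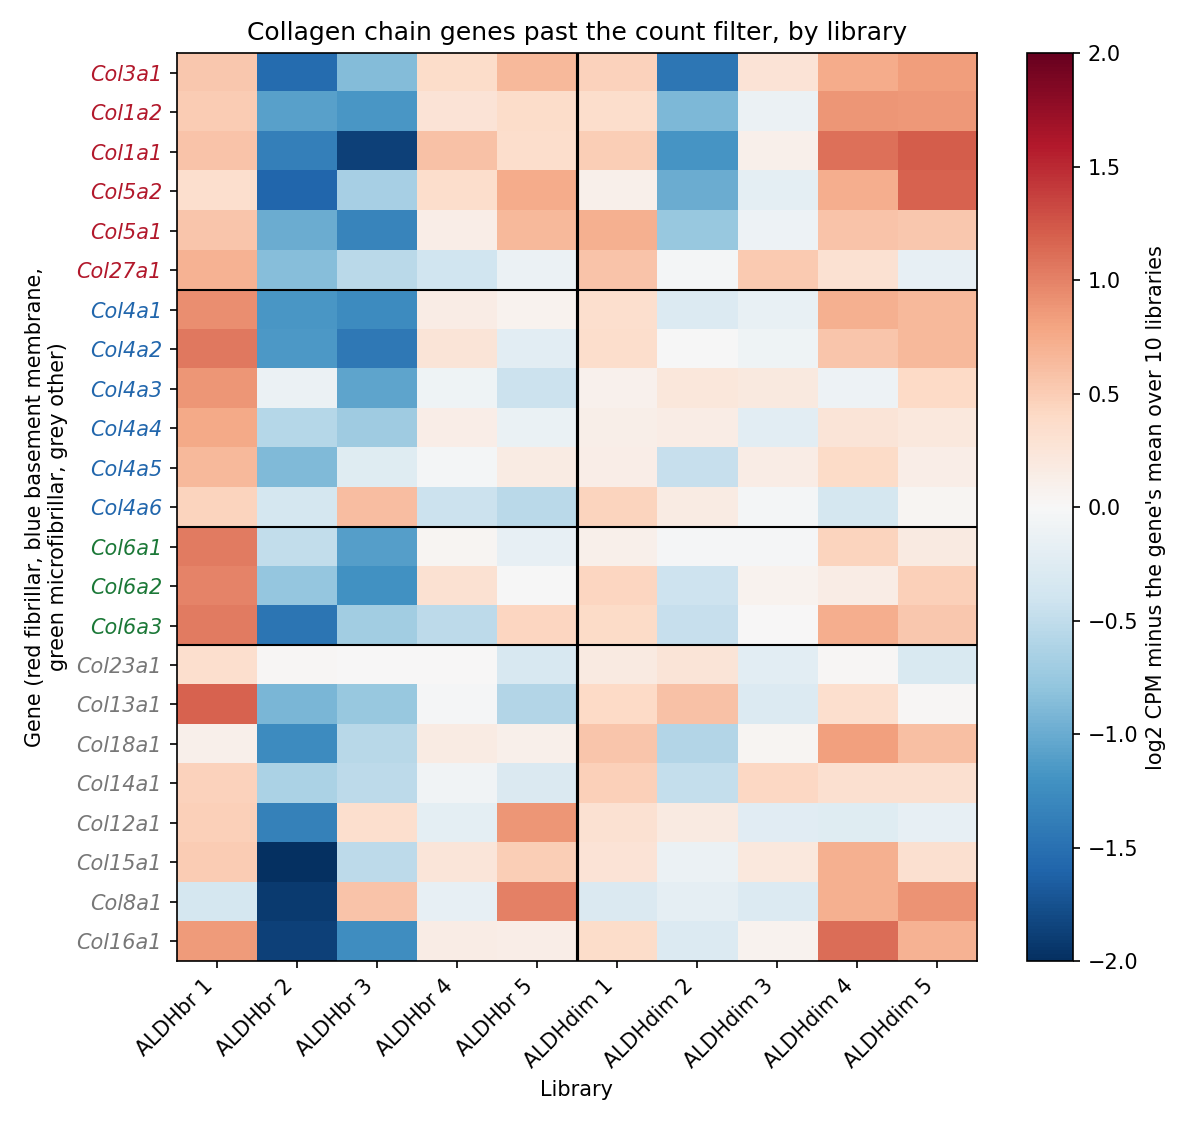
log2 CPM of each of the 23 tested chains (rows, grouped by class) minus the gene's mean over the 10 libraries (columns, ALDHbr left and ALDHdim right of the thick line), with colours limited to 2 in either direction. The chains of types I, III and V are low in ALDHbr 2, ALDHbr 3 and ALDHdim 2, and Col4a1, Col4a2, Col6a1 and Col6a2 are highest in ALDHbr 1.

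No collagen chain was called different between recipients of ALDHbr and ALDHdim cells. With edgeR's quasi-likelihood test, 0 of the 23 chains passed an adjusted p of 0.05, against 0% of 10844 tested genes, and each had an adjusted p of 0.99925. None of the 23 (0) reached an unadjusted p under 0.05, which compares with 3.71% of all tested genes. This fit leaves out the replicate numbers, whose meaning is not given. With a replicate block in the edgeR fit, 7 of the 23 reached that unadjusted level, all lower in ALDHbr recipients, against 3.24% of genes in that direction. After adjustment 0 passed, as described in the closing section. With DESeq2 there were also 0 called among all 44 chains (0% of all genes). Unadjusted, 5 chains below the filter (Col19a1, Col22a1, Col6a4, Col25a1 and Col28a1) were higher at p under 0.05 with DESeq2. In that direction, 3.96% of genes reached this level. With limma-voom 0 of 23 were called (0% of genes), and Col14a1 alone was lower at that unadjusted level, which 2.97% of genes reached in that direction. For 0 of 23 chains did the 2 groups fail to overlap, against 0.535% of tested genes. Estimates were lower in ALDHbr recipients for 21 chains and higher for 2, with a median log2 fold change of −0.17, beside 48.1% of all tested genes lower and a median of 0.011. The chains varied together across libraries, so these 23 estimates are not independent. By class the median was −0.30 for 6 fibrillar, −0.12 for 6 basement membrane, −0.075 for 3 microfibrillar and −0.16 for 8 other chains. Leaving out 1 library moved the median over these 23 chains from −0.17 to between −0.50 (without ALDHbr 1) and −0.037 (without ALDHbr 2).

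Of the single libraries left out, ALDHbr 1 moved the comparison most. Of the 11024 genes tested without it, 1141 had an unadjusted p under 0.05 in either direction (edgeR). The share that was lower in ALDHbr recipients at that level was 4.82%. Of the 23 chains, 7 reached it, all lower in ALDHbr recipients, and 0 passed after adjustment. They were Col13a1 (−0.76), Col4a3 (−0.55), Col6a1 (−0.50), Col14a1 (−0.58), Col27a1 (−0.73), Col4a2 (−0.77) and Col4a4 (−0.37), as log2 fold changes, with adjusted p of 0.31 to 0.47 (edgeR). ALDHbr 1 also held the highest summed level of the fibroblast list (10 of 10 genes tested), at 1946 CPM, where the other ALDHbr libraries ranged from 1265 to 1398 CPM and the ALDHdim libraries from 1406 to 1648 CPM. Smooth muscle and pericyte markers (9 of 9 tested) were likewise highest in ALDHbr 1, at 1015 CPM, and lowest in ALDHbr 3, at 419 CPM, against 639 to 876 CPM in the ALDHdim group. In ALDHbr 2, ALDHbr 3 and ALDHdim 2, low in fibrillar collagen, the fibroblast list summed to 1398, 1265 and 1496 CPM. In ALDHdim 4 and 5, high in fibrillar collagen, it summed to 1484 and 1406 CPM. The smooth muscle and pericyte list summed to 704, 419 and 876 CPM in the former libraries and 718 and 639 CPM in the latter. Endothelial markers (8 of 8 tested) ranged from 1303 CPM in ALDHbr 3 to 3074 CPM in ALDHdim 2. The summed level of lung epithelium markers was highest in ALDHbr 2 (97922 CPM) and ALDHdim 2 (77151 CPM), both low in fibrillar collagen. In ALDHbr 3, also low in fibrillar collagen, it was 59961.5 CPM, under ALDHdim 1 (63801 CPM) and ALDHdim 3 (64271 CPM). It was lowest in ALDHdim 5 (36245 CPM) and ALDHdim 4 (40808 CPM), where fibrillar collagen was highest. Hemoglobin genes (4 of 4 tested) were at 1616 and 2003 CPM in ALDHdim 4 and 5. In ALDHbr 2, ALDHbr 3 and ALDHdim 2 they summed to 12628, 14229.7 and 12708 CPM, and in the other 5 libraries to 4569 to 14048 CPM. No gene of these 5 lists was at 0 in all libraries. Their part in the collagen levels was not tested. Without ALDHbr 3 and ALDHbr 5 together, the median over the same 23 chains was −0.095, and the estimates of Col1a1 and Col6a1 were −0.38 and 0.23. In bulk tissue, fewer cells of a type and less RNA per cell cannot be told apart.

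**Figure D3:**
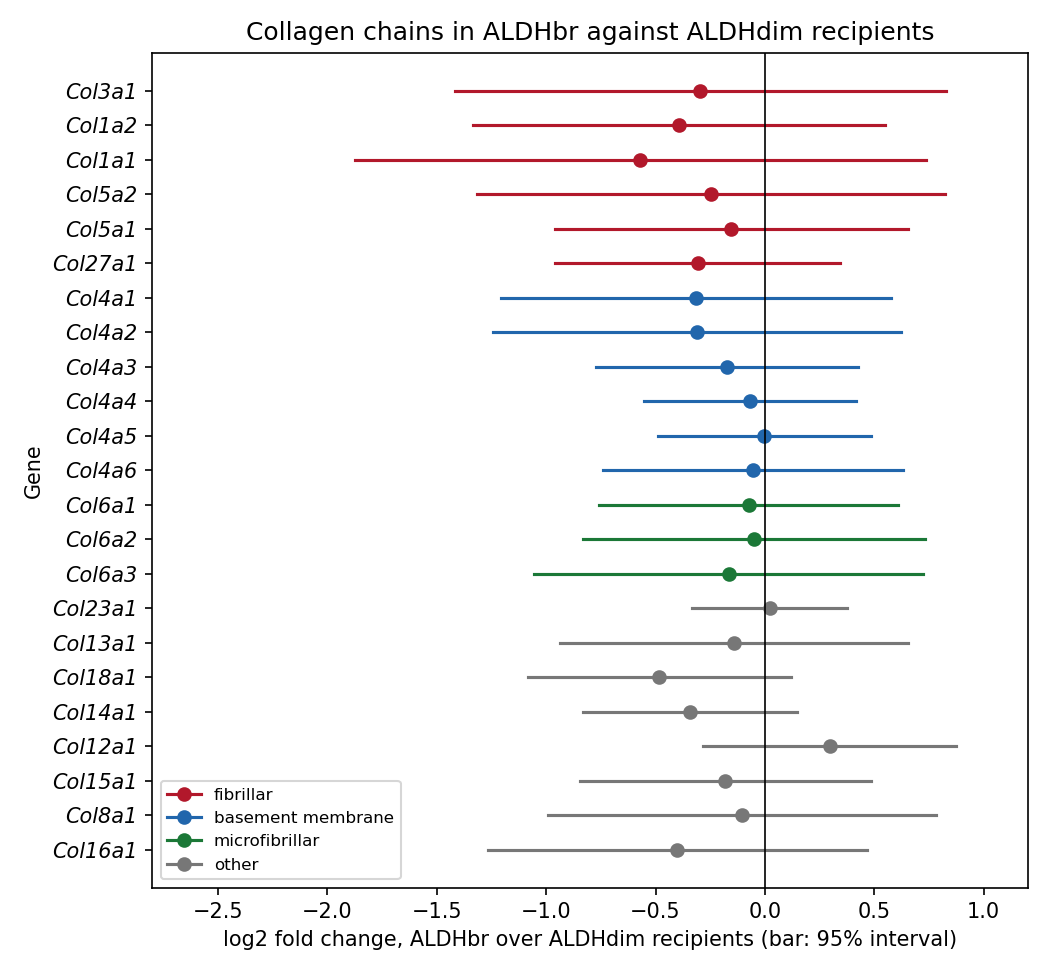
log2 fold change, ALDHbr over ALDHdim recipients (horizontal axis), of the 23 tested chains with its 95% interval (bar), coloured by class. Every interval crosses 0, and the widest is that of Col1a1, from −1.87 to 0.73.

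The spread within groups, taken without the replicate numbers, limits what this comparison could show for collagen more than for most genes. The biological coefficient of variation, edgeR's estimate of the spread between libraries of a group beyond counting error, was 61.9% for Col1a1. Of all tested genes, 99.5% varied less. It was 53.9% for Col3a1, 52.7% for Col5a2, 46.0% for Col4a2 and 44.4% for Col6a3. The median was 49.4% for fibrillar, 38.9% for microfibrillar, 27.3% for basement membrane and 26.6% for other chains, beside 17.0% over all tested genes. Only Col23a1, at 15.8%, lay under that median. The 95% interval of the fold change lay within 2-fold in either direction for 14 of 23 chains (60.9%), and for 90.5% of all tested genes. For the fibrillar class this held for 2 of 6, Col5a1 and Col27a1. The intervals of Col3a1, Col1a2 and Col4a1 ran from 0.374 to 1.77, 0.396 to 1.46 and 0.433 to 1.49 as a fold.

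**Figure D4:**
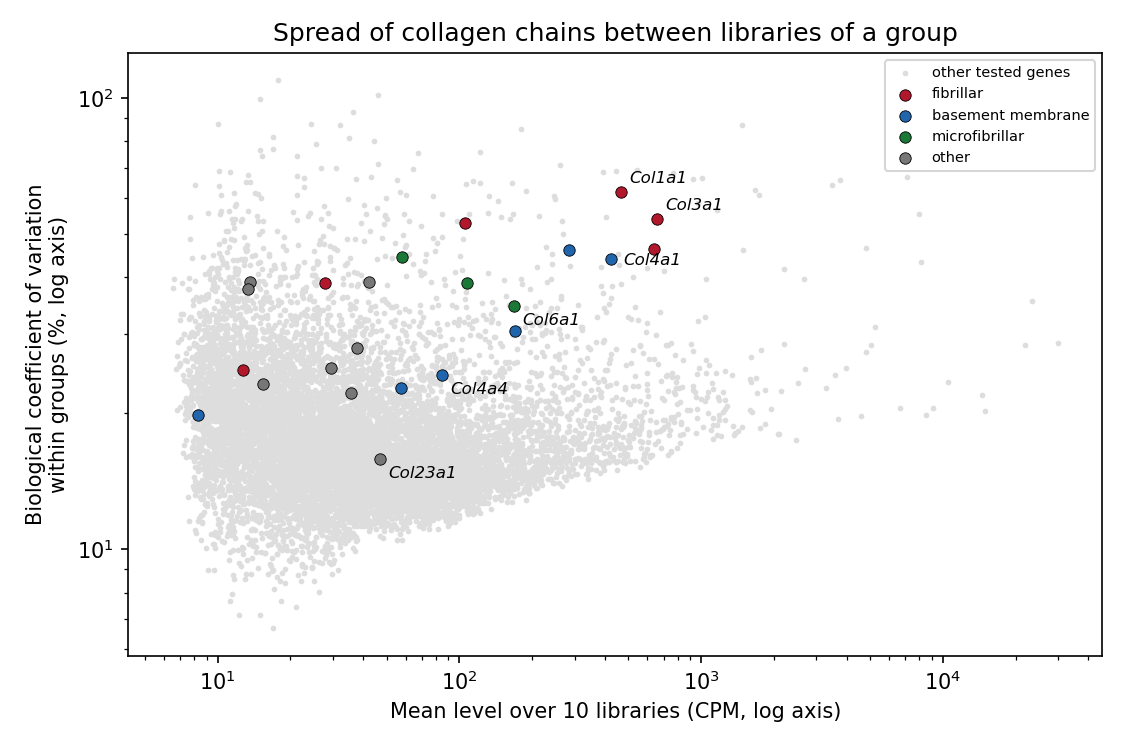
Biological coefficient of variation within groups in percent against mean CPM over the 10 libraries, both on log axes, for the 23 collagen chains (coloured by class) and all other tested genes (grey). Col1a1, Col3a1 and Col4a1 lie near the upper edge of genes of their level, and Col23a1 lies within the bulk.

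Chains of the same molecule and of different molecules were compared across the 10 libraries by Pearson's r and Spearman's rho of log2 CPM, in 13 pairs with Benjamini-Hochberg adjustment. These relations must be read against the gap already seen in Col1a1, which takes 41.4% of its log2 range and leaves ALDHbr 2, ALDHbr 3 and ALDHdim 2 below and 7 libraries above it. For pairs led by a chain with such a gap, r is therefore also given over the libraries above it alone, a setting chosen after seeing the data. The adjusted p of that setting is over the pairs with a gap only, not over all 13. It takes tests on 7 and on 8 libraries together, and adjustment over 13 would be stricter. Permutation tests are two-sided, and those over 7 or 8 libraries are exact.

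The chains of type I collagen, Col1a1 and Col1a2, moved nearly in step over 10 libraries, with r = 0.99 (permutation p = 1e-05, adjusted p = 6.5e-05) and rho = 0.90 (p = 0.00072, adjusted p = 0.0023). Without the 2 libraries farthest from the median (ALDHbr 2 and ALDHbr 3) r was 0.98, and above the gap it was 0.95 (n = 7, exact adjusted p = 0.011). Col1a1 and Col3a1 gave r = 0.93 (permutation p = 0.0023, adjusted p = 0.0038) and rho = 0.85 (p = 0.0028, adjusted p = 0.0052), 0.94 without the 2 farthest libraries and 0.83 above the gap (exact adjusted p = 0.037). The neighbours Col3a1 and Col5a2 gave r = 0.95 (permutation p = 2e-05, adjusted p = 6.5e-05) and rho = 0.95 (p = 0.00011, adjusted p = 0.00071), 0.88 without the 2 farthest libraries (ALDHbr 2 and ALDHdim 2) and 0.93 above the gap (exact adjusted p = 0.0085). By r, these 3 fibrillar relations thus passed the threshold among the 7 libraries of higher collagen, with adjustment over the pairs with a gap. There rho was 0.71 (exact permutation p = 0.088, unadjusted) for Col1a1 and Col1a2. For Col1a1 and Col3a1 rho was 0.68 (exact permutation p = 0.11, unadjusted). For Col3a1 and Col5a2 rho was 0.86 (exact permutation p = 0.024, unadjusted). By rho, the relations of Col1a1 to Col1a2 and Col3a1 were therefore not established among these 7 libraries. The type V chains Col5a1 and Col5a2 gave r = 0.86 (permutation p = 0.0021, adjusted p = 0.0038) and rho = 0.68 (p = 0.035, adjusted p = 0.041), and r = 0.83 without ALDHbr 2 and ALDHbr 3. No test was run for this fibrillar pair over the 7 libraries above the gap in Col1a1, where r was 0.53.

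Among the head-to-head type IV pairs, the relation was closest in the pair whose starts overlap. Col4a1 and Col4a2 gave r = 0.98 (permutation p = 2e-05, adjusted p = 6.5e-05) and rho = 0.94 (p = 0.00019, adjusted p = 0.00082). Without ALDHbr 2 and ALDHbr 3, the 2 libraries below the gap in Col4a1, r was 0.92 (n = 8, exact adjusted p = 0.0084). These genes overlap at their first exons on opposite strands, and the sources used here do not say whether counting used strand. Reads in those bases could therefore be assigned wrongly or dropped. A 3′ method reads mainly the other end of a transcript, and how many reads lay in the overlap was not measured. The annotation also has exons of Gm47302 that overlap those of Col3a1 on the same strand, and antisense genes over exons of Col4a2, Col4a3, Col5a1 and Col15a1, whose counts are uncertain to that extent. Col4a3 and Col4a4 gave r = 0.81 (permutation p = 0.0063, adjusted p = 0.009) and rho = 0.70 (p = 0.031, adjusted p = 0.04). Without ALDHbr 1 and ALDHbr 3, r was 0.35 (n = 8, exact permutation p = 0.39), so the relation was not established in the rest. Those 2 libraries lay farthest from the median of Col4a3, and leaving them out narrows the range, so absence of a relation is not shown either. Col4a5 and Col4a6 gave r = 0.15 (permutation p = 0.68, adjusted p = 0.68), rho = −0.0061 (p = 1, adjusted p = 1) and r = −0.034 without ALDHbr 2 and ALDHdim 2, at only 109 counts of Col4a6 in all. Whether the r values of the 3 pairs differ was not tested, and the pairs differ in depth. Col4a1 and Col4a3, of the same class but different molecules, gave r = 0.69 (permutation p = 0.026, adjusted p = 0.029) and rho = 0.56 (p = 0.096, adjusted p = 0.1). Without ALDHbr 2 and ALDHbr 3, r was 0.47 (n = 8, exact adjusted p = 0.28), so this relation did not pass the threshold without those 2 libraries.

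Type VI chains were related as well. Col6a1 and Col6a2 gave r = 0.91 (permutation p = 0.00039, adjusted p = 0.00084) and rho = 0.89 (p = 0.0012, adjusted p = 0.0027), and r = 0.73 without ALDHbr 1 and ALDHbr 3. Col6a1 and Col6a3 gave r = 0.76 (permutation p = 0.0098, adjusted p = 0.012) and rho = 0.82 (p = 0.0058, adjusted p = 0.0084), and r = 0.79 without the same libraries. Across classes, Col4a1 and Col6a1 gave r = 0.91 (permutation p = 1e-05, adjusted p = 6.5e-05) and rho = 0.95 (p = 0.0001, adjusted p = 0.00071) and r = 0.82 without ALDHbr 2 and ALDHbr 3 (n = 8, exact adjusted p = 0.0084). Col1a1 and Col4a1 gave r = 0.92 (permutation p = 0.00017, adjusted p = 0.00044) and rho = 0.89 (p = 0.0011, adjusted p = 0.0027), r = 0.77 without ALDHbr 2 and ALDHbr 3, and r = 0.71 above the gap (n = 7, exact adjusted p = 0.11). Col1a1 and Col6a1 gave r = 0.75 (permutation p = 0.0072, adjusted p = 0.0094) and rho = 0.84 (p = 0.0038, adjusted p = 0.0062), r = 0.34 without ALDHbr 2 and ALDHbr 3, and r = 0.30 above the gap (exact adjusted p = 0.53). By r, the relations of Col1a1 to Col4a1 and Col6a1 did not pass the threshold among the 7 libraries of higher collagen. There rho was 0.68 (exact permutation p = 0.11, unadjusted) for Col1a1 and Col4a1, the same as for Col1a1 and Col3a1. For Col1a1 and Col6a1 rho was 0.64 (p = 0.14) there, and 0.69 without ALDHbr 2 and ALDHbr 3. The difference from the 3 fibrillar pairs that passed there was thus seen in r and not in each rho. Over all 15 pairs of tested fibrillar chains the median r was 0.91 over 10 libraries and 0.67 over the 7 above the gap. Above the gap, single fibrillar pairs ran from −0.57 (Col5a2 and Col27a1) to 0.95 (Col1a1 and Col1a2). Between fibrillar and basement membrane chains the median r was 0.72 and 0.32 (36 pairs), and between basement membrane and microfibrillar chains 0.84 and 0.77 (18 pairs). These medians describe the same 10 libraries, share depth and library effects, and carry no test.

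**Figure D5:**
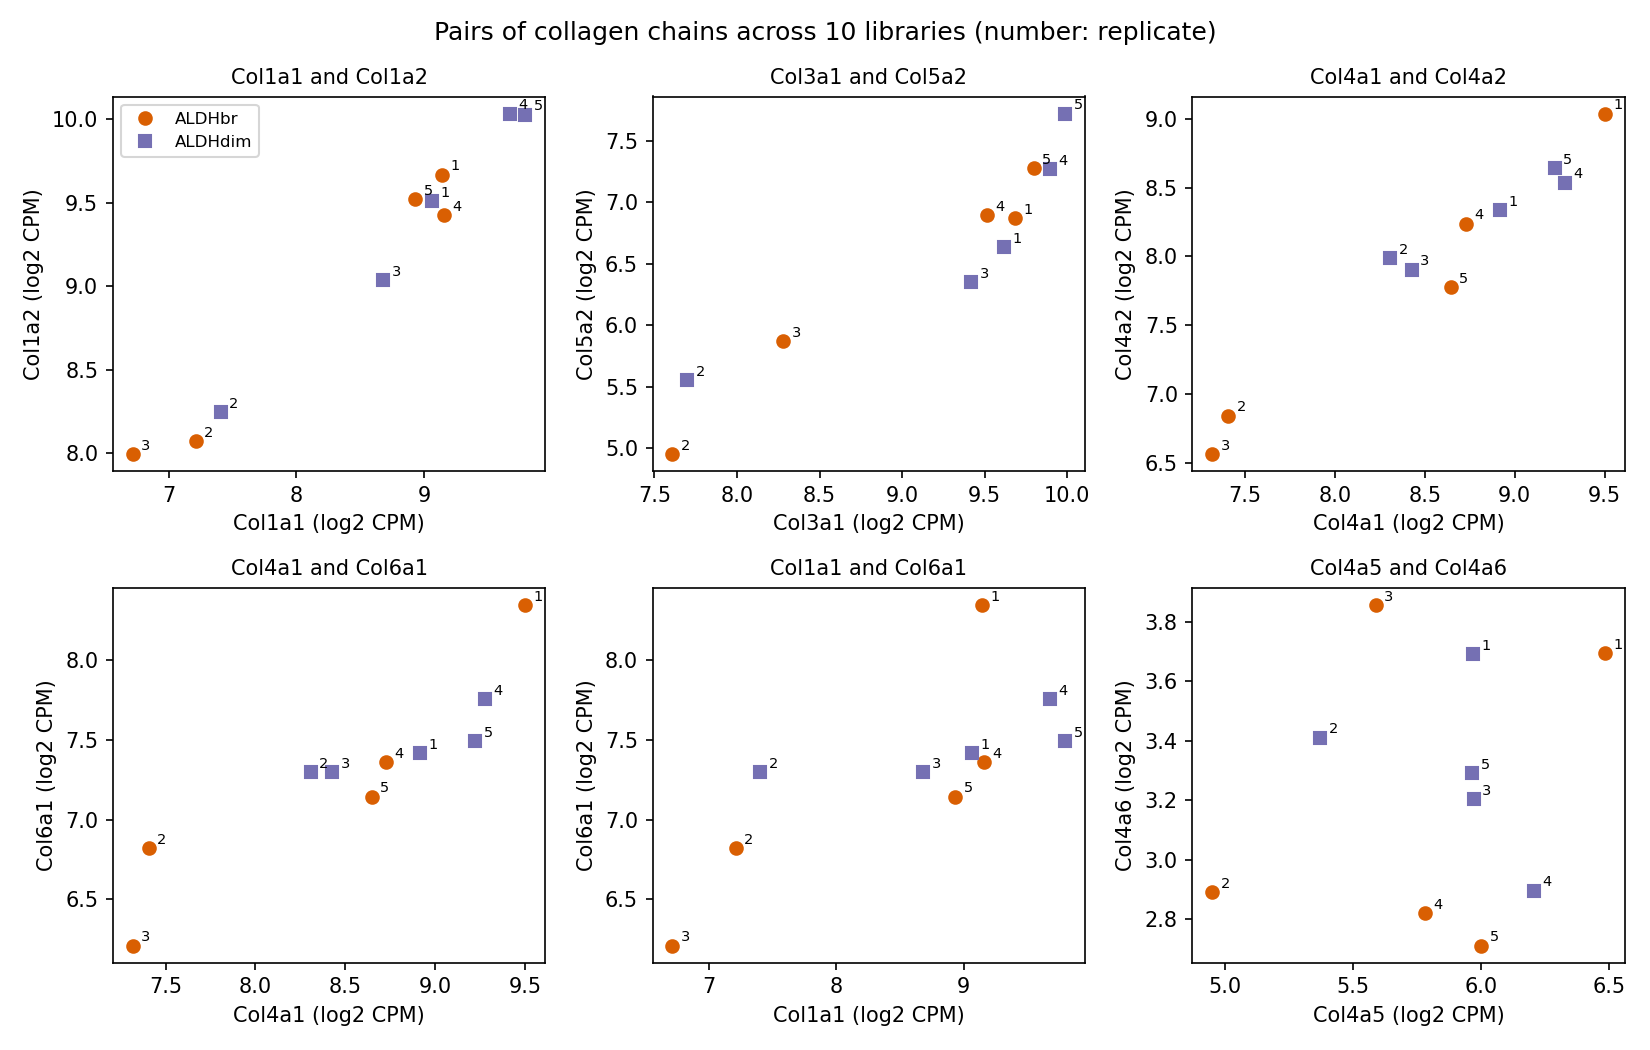
log2 CPM of 6 pairs of chains across the 10 libraries (circles ALDHbr, squares ALDHdim, number the replicate). ALDHbr 2, ALDHbr 3 and ALDHdim 2 lie apart from the other 7 in the panels of Col1a1 with Col1a2 and Col3a1 with Col5a2, and Col4a5 with Col4a6 shows no line.

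Ratios of chains within a library, which do not depend on its scaling, were compared between the groups by an exact permutation test, two-sided, of the group labels (smallest possible p = 0.0079) with adjustment over 6 ratios. The mean log2 ratio of Col1a1 to Col1a2 was −0.71 ± 0.38 and −0.45 ± 0.23 in ALDHbr and ALDHdim recipients (SD, n = 5 each; exact p = 0.23, adjusted p = 0.69). It was lowest in ALDHbr 3 (−1.28), ALDHbr 2 (−0.86) and ALDHdim 2 (−0.84), the libraries of least type I collagen, against −0.59 to −0.23 in the other 7. Col1a1 is the numerator of this ratio and spanned 8.58-fold, against 4.13-fold for Col1a2. Low ratios where Col1a1 is low are therefore partly built in. The log2 ratio of Col3a1 to Col1a1 was 0.74 ± 0.50 and 0.40 ± 0.24 (exact p = 0.2, adjusted p = 0.69). It was highest in ALDHbr 3 at 1.56, where Col1a1, its denominator, was lowest. The ratio of Col4a1 to Col4a2 was steadier, from 0.32 to 0.87 over all libraries. The adjusted p of the ratios of Col4a1 to Col4a2, Col4a1 to Col1a1 and Col6a1 to Col1a1 was 0.69 each, and that of Col6a1 to Col6a2 was 0.98 (exact permutation tests). The ratio of Col6a1 to Col1a1 ranged from −2.30 in ALDHdim 5 to −0.11 in ALDHdim 2, so the extremes of this balance lay within 1 group.

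Of 10821 tested genes that are no collagen chain, 9 were correlated with Col1a1 over the 10 libraries at an adjusted p under 0.05, and 59 with Col4a1 (Pearson, permutation test with 100000 resamples, whose smallest p is 1e-05). Genes were named by the size of r and not by p. The closest to Col1a1 was Emilin1, an elastic fibre glycoprotein, with r = 0.97 (permutation p = 4e-05, adjusted p = 0.048) and rho = 0.98 (p = 2e-05, adjusted p = 0.03), and r = 0.88 over the 7 libraries above the gap. It was followed by Loxl1, a lysyl oxidase that crosslinks matrix, F7, coagulation factor VII, the lysosomal mannosidase Man2b1, the cytokine receptor chain Csf2rb2, the chaperone Calr, the receptor kinase Axl, the TGF-beta receptor Tgfbr2, Bcl3 and the macrophage receptor Csf1r. Of the 10 genes, Emilin1, F7, Man2b1 and Tgfbr2 had an adjusted p under 0.05 by r. The other 6 did not (Loxl1 0.052, Axl 0.052, Calr 0.052, Bcl3 0.065, Csf1r 0.07 and Csf2rb2 0.075, adjusted permutation p). By rho, Man2b1 did not pass (adjusted permutation p = 0.068). The r of the 9 after Emilin1 ran from 0.93 to 0.95 over 10 libraries and from 0.67 (Loxl1) to 0.93 (F7) above the gap. Loxl1 was the closest gene to Col4a1, with r = 0.97 (permutation p = 1e-05, adjusted p = 0.014) and rho = 0.99 (p = 2e-05, adjusted p = 0.054), and r = 0.94 without ALDHbr 2 and ALDHbr 3. The next for Col4a1 were Flna, Ppan, Dag1, Igf2r, Tle3, Olfml3, Tpp1, Actn1 and Adamts15, with r of 0.95 to 0.97, and of 0.83 (Adamts15) to 0.99 (Olfml3) without ALDHbr 2 and ALDHbr 3. Dag1 encodes dystroglycan, a receptor of basement membranes, and Flna and Actn1 encode proteins that crosslink actin. By r, all 10 genes listed for Col4a1 had an adjusted p under 0.05. By rho, their adjusted permutation p ran from 0.054 (Loxl1 and Olfml3) to 0.15 (Adamts15), so that no gene of this list passed. Apart from Loxl1 the lists of 10 genes had no gene in common.

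The genes that make collagen and those that bind it gave no call either. Of 29 listed genes of collagen hydroxylation, folding, processing and crosslinking, 23 were tested, 16 with lower and 7 with higher estimates in ALDHbr recipients, a median of −0.095, and 0 passed the threshold (0 at an unadjusted p under 0.05, edgeR). Over all tested genes, 48.1% had lower estimates, 0% passed and 3.71% had an unadjusted p under 0.05. Crtap, part of the prolyl 3-hydroxylase complex, averaged 31.0 ± 9.74 against 23.8 ± 2.82 CPM (log2 fold change 0.43, SE 0.21). The collagen galactosyltransferase Colgalt2 had a log2 fold change of 0.62 (SE 0.41), and the prolyl 4-hydroxylase subunits P4ha1 and P4ha3 had values of −0.24 (SE 0.17) and −0.70 (SE 0.50). Of 18 genes that bind or break down collagen, 14 were tested, 12 lower and 2 higher, with a median of −0.18 and 0 past the threshold or at an unadjusted p under 0.05. The receptor kinases Ddr2 and Ddr1, which bind collagen itself, had log2 fold changes of −0.23 (SE 0.14) and −0.28 (SE 0.19). Itgb1, the beta chain of the collagen-binding integrins, averaged 460.1 ± 61.5 against 534 ± 43.7 CPM (log2 fold change −0.21, SE 0.13), and the protease Ctsk 66.0 ± 24.5 against 49.5 ± 15.8 CPM (log2 fold change 0.46, SE 0.29).

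The 21 chains below the filter held 580 counts in all. They include chains of cartilage (Col2a1, Col9a1, Col9a2, Col9a3, Col10a1, Col11a2), the anchoring fibril chain Col7a1 and Col17a1 of hemidesmosomes. Col2a1, the main collagen of cartilage, had 5 counts over 10 libraries, and the cartilage marker Acan stood at 1.41 and 0.142 CPM on average in ALDHbr and ALDHdim recipients. Chad, 1 of 8 such markers in the table and the only one tested, was at 26.4 and 33.7 CPM.

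Counts of these low chains lay in 2 libraries in a greater share than all counts did. ALDHbr 3 and ALDHbr 5 held 34.7% of them, against 16.1% of all counts and 11.7% of the counts of the 23 tested chains. Col19a1, a fibril-associated chain, had 1, 3, 11, 1 and 16 counts in ALDHbr 1 to 5 and 2, 1, 2, 1 and 1 in ALDHdim 1 to 5. Col25a1, a transmembrane chain known from neurons, had 1, 0, 14, 4 and 14 and 3, 1, 3, 2 and 0, and Col22a1 2, 0, 7, 1 and 7 and 0, 0, 1, 1 and 0. Col11a1, a fibrillar chain of cartilage and activated fibroblasts, had 2, 4, 18, 6 and 20 and 5, 1, 9, 13 and 3. In these 4 genes, chosen after their values were seen, ALDHbr 3 and ALDHbr 5 were the highest libraries in counts. The share in the 2 libraries was over 40% for 12 of the 21 low chains. It was 8.93% for Col8a2, which had the most counts of them (112), 15.5% for Col5a3, 4.55% for Col7a1 and 0% for Col17a1 (0 of 34 counts). With no filter, 7 of the 44 chains had an unadjusted p under 0.05 and were higher in ALDHbr recipients (Col19a1, Col25a1, Col22a1, Col6a4, Col11a1, Col28a1 and Col9a1), a level that 10.1% of 33347 genes reached in that direction. Col18a1 was lower at that level, as were 1.43% of genes. Of the 44, 0 passed after adjustment, against 0.555% of genes, the closest being Col19a1 (adjusted p = 0.051, edgeR). These libraries were also those with the most genes detected at equal depth, and at that depth 38.6 and 38.7 collagen chains were detected in them, against 27.9 to 33.0 in the other 8. The part of this wider detection in the low chains' counts was not tested. Across the 21 low chains, the share of counts in these 2 libraries had a Spearman rho of 0.42 with the span of the gene, and over all 44 chains it was 0.18, descriptions over genes that share the same libraries.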

How the data were processed

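RNA of 10 lung samples was measured by BRB-seq, a 3′ method with barcoded samples pooled before amplification, per the labels' protocols. The authors deposited a table of unnormalized counts for each gene. The submitters' processing notes name the aligner HISAT2 2.2.1, the counter featureCounts 2.0.1, the trimmer Trim Galore 0.6.7, UMI-tools and DESeq2, and the builds GRCm38 and GRCh38, without saying which served what. The sources used here do not give the annotation, the strand setting or whether molecular identifiers were collapsed, and uncollapsed PCR copies would add counts without molecules. No pair of libraries agreed within sampling noise (lowest chi-square per degree of freedom 2.21).

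Counts of 10844 genes past filterByExpr (97.3% of counts) entered edgeR 4.0.16 under R 4.3.3, with TMM factors and its robust quasi-likelihood fit and test, and p-values were adjusted by Benjamini-Hochberg over all of them. The script was tested on simulated data. Fold changes are ALDHbr over ALDHdim, and each SE is the log2 fold change divided by the root of its F. Correlations and ratios used log2 CPM with a prior count of 2. All collagen chains are named, with other genes by fixed lists, smallest p or closest correlation. The members and lists were chosen with earlier results of these data known. Alternatives were DESeq2 1.42.0, limma-voom (limma 3.58.1), other scalings and filters, a replicate term, another prior count and leaving out libraries. Positions are from GENCODE M21 on GRCm38. Plots were drawn with matplotlib 3.10.9.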

Additional observations from a re-analysis of the deposited data

Results flagged for a closer look

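Within a group of 5, a library was singled out where its gap to the nearest other took more than 0.71 of the group's range. Of 74 sets of 5 values (23 chains, 8 class measures and 6 ratios in 2 groups), 4 were singled out, against 3.7 expected, since chance does so in about 1 of 20.

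Col13a1 was at 88.7 CPM in ALDHbr 1, where the rest of its group had 19.6 to 37.8 CPM. Col14a1 was at 24.2 CPM in ALDHdim 2, where the rest of its group had 42.9 to 48.3 CPM. In the same library the fibrillar share of collagen counts was 34.7%, against 54.7 to 61.1%, and the basement membrane share was 41.5%, against 25.8 to 28.3%. These shares are parts of 1 total and so move against each other.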

How the results depend on the processing

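The count of 0 called genes became 185 of 33347 with no low-count filter and stayed at 0 under each other alternative. The count of 0 called collagen chains stayed at 0 under every alternative run. With no filter and with DESeq2 the median log2 fold change of all genes was 0.22 and 0.28, and that of the 44 chains −0.11 and −0.10 (edgeR and DESeq2). Without both ALDHbr 3 and ALDHbr 5, estimates changed sign for Col4a2 (0.011), Col4a3 (0.16), Col4a4 (0.16), Col4a5 (0.054), Col6a1 (0.23), Col6a2 (0.23), Col13a1 (0.21) and Col12a1 (−0.022). That of Col23a1 did so with no filter (−0.033) and with limma-voom (−0.044). Leaving out 1 library at a time gave log2 fold changes with a change of sign for Col6a1 (−0.50 to 0.11), Col6a2 (−0.42 to 0.14), Col5a2 (−0.47 to 0.089), Col4a4 (−0.37 to 0.064), Col4a5 (−0.23 to 0.11), Col23a1 (−0.093 to 0.11), Col13a1 (−0.76 to 0.0020), Col5a1 (−0.35 to 0.038), Col8a1 (−0.51 to 0.16) and Col4a6 (−0.27 to 0.094). The log2 ratio Col6a1/Col6a2 (−0.073 to 0.11) changed sign in the same way. Correlations that lost the threshold or changed sign when 1 library was left out were Col4a5 and Col4a6 (−0.098 to 0.30), Col6a1 and Col6a3 (0.67 to 0.80), Col4a1 and Col4a3 (0.46 to 0.78), Col4a3 and Col4a4 (0.69 to 0.88) and Col1a1 and Col6a1 (0.57 to 0.84). Over the libraries above the gap, an alternative chosen after seeing the data, those of Col1a1 with Col4a1 (0.71), Col1a1 with Col6a1 (0.30) and Col4a1 with Col4a3 (0.47) lost it, with fewer libraries in the test. Differences in class shares (ALDHbr minus ALDHdim, percentage points) moved by less than the SD within groups, but leaving out 1 library changed them from −1.71 to between −6.29 and 0.31 for fibrillar, −0.74 to between −2.10 and 2.14 for basement membrane, 0.93 to between 0.37 and 1.69 for microfibrillar and 1.52 to between −0.056 and 2.46 for other chains. The lowest fibrillar and the highest basement membrane value came without ALDHdim 2, and the lowest value of the other chains without ALDHbr 3. The causes of these changes were not tested.

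Replicate numbers recur in both groups, and the sources used here do not say what they mean. Deviations of same-numbered samples correlated at 0.062 to 0.37 across tested genes, over 0.1 in 4 of 5 pairs, and 7 of 10 libraries were closest to their own number. The main fit did not take the numbers as pairs, since the labels do not say that they mark one. Whether they pair the samples is not known. With a replicate block in the edgeR fit, 0 genes and 0 chains were called. Of the 10844 tested genes, 727 had an unadjusted p under 0.05 in either direction. The share that was lower in ALDHbr recipients at that level was 3.24%. Of the 23 chains, 7 reached it, all lower in ALDHbr recipients. These were Col1a1 (−0.67), Col1a2 (−0.43), Col3a1 (−0.34), Col5a2 (−0.30), Col4a1 (−0.49), Col14a1 (−0.42) and Col18a1 (−0.58), each with an adjusted p of 0.73. With edgeR's quasi-likelihood test, the block took Col18a1 from an unadjusted p of 0.11 (adjusted p = 0.99925) to 0.0022 (adjusted p = 0.73), and Col1a1 from 0.35 to 0.012, with the same adjusted p. Of 5 same-numbered comparisons, Col18a1 and Col14a1 were lower in ALDHbr recipients in 5, and Col1a1, Col1a2 and Col3a1 in 4. An exact paired sign-flip permutation test of the ratios cannot go below p = 0.0625, and its smallest adjusted p was 0.5.

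Depth limits the 21 chains below the filter, and ALDHbr 2 holds the fewest collagen counts (772).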
